A study of Rattus norvegicus with 56 samples.

Results

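The stage of the oestrous cycle was compared among 12 rats that had received what the labels call RXR treatment. Of these, 6 were labelled proestrus, estrus or either (rats 2, 3, 10, 11, 12 and 14) and 6 were labelled diestrus (rats 4 to 9). They were taken by their labels, as the treated individual rats with 1 array each, out of 56 arrays in the series, without repeat arrays and pools. All were female Wistar Furth rats, an inbred strain, and the labels give their number, group and stage but no age, compound or dose. The letters usually stand for the retinoid X receptor, the common partner in dimers of many nuclear receptors. Rat 10 was labelled proestrus, rats 2, 11 and 12 estrus, and rats 3 and 14 proestrus or estrus without a decision between them, so the 2 stages could not be told apart within the group. Beside them stood 12 control rats, 3 in proestrus or estrus and 9 in diestrus, and 6 pools of 2 treated rats, 3 of proestrus or estrus rats and 3 of diestrus rats. The pools held the same labelled targets as the individual arrays, so they repeated the hybridisation and not the rats.

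The cycle of the rat moves through proestrus, when ovarian oestradiol peaks before ovulation, into estrus and then into diestrus, when corpora lutea supply progesterone. Oestradiol acts through the receptors Esr1 and Esr2 and induces the progesterone receptor Pgr and the growth factor amphiregulin (Areg) in mammary epithelium. Progesterone acts through Pgr and the cytokine RANKL (Tnfsf11) on proliferation and side branching, so that epithelial content can vary with the cycle. The comparison asked which genes of the treated gland differed between both parts of the cycle.

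No probe set separated the stages at an adjusted p of 0.05. By limma with Benjamini-Hochberg adjustment 0 of 15866 probe sets passed (0%), and the smallest adjusted p was 0.393. At an unadjusted p under 0.05 there were 552 (3.48%), of which 339 (2.14%) were higher and 213 (1.34%) lower in proestrus or estrus. In 19 probe sets (0.120%) the 6 rats of each stage did not overlap. The 95% interval of the difference lay within 0.5 log2 of 0 for 95.1% of the probe sets and within 1 log2 for 99.4%, so for most genes a difference above 1 log2 lay outside the interval. The stage took up 8.15% of the summed variance between the 12 arrays, where 9.09% corresponds to 1 of 11 degrees of freedom. None of the differences below passed the test over all probe sets, and the values describe these rats.

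The genes with the smallest p were described in 2 groups of 12, chosen for their p, so that their differences have no support beyond it. Those higher in proestrus or estrus were led in size by Agt, the precursor of the angiotensin peptides, and Obp3, a lipocalin of the alpha-2u globulin family that carries small hydrophobic molecules. Those lower were led in size by Tsc22d3, a leucine zipper protein that glucocorticoids induce, and Pde4b, a phosphodiesterase that degrades cAMP. The smallest p of all belonged to Rin2, an effector of the endosomal GTPase Rab5. Over the 24 genes the unadjusted p ran from 2.48e-05 to 0.00272 and the adjusted p from 0.393 to 0.999. The groups did not overlap in 9 of the 24, where 0.120% of all probe sets did not. That count was largely set by the choice for a small p in the same rats.

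Agt ran from 9.83 over a median of 10.2 to 10.6 log2 in proestrus or estrus, and from 7.96 over 9.06 to 9.94 log2 in diestrus. The rats outside diestrus lay close together, and only the lowest of them, rat 3, lay below the highest diestrus rat, rat 6. The difference was 1.23 ± 0.29 log2 (SE), a signal 2.35 times as high (adjusted p = 0.999 by limma). The level was spread more widely in diestrus, with an SD of 0.78 against 0.26 outside it. In the pools of 2 the proestrus or estrus pools read 10.4, 10.6 and 10.2 and the diestrus pools 9.41, 9.31 and 8.66 log2, without overlap. In control rats, which share no array with the treated rats, Agt averaged 10.4 log2 in proestrus or estrus and 9.54 log2 in diestrus, a difference of 0.84 ± 0.24 (SE, adjusted p = 1.0 by limma). The other 10 genes of the renin-angiotensin list that were measured stayed between -0.29 and 0.13, the lowest being Agtr1a, the angiotensin receptor, at -0.29 ± 0.14 (SE).

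Obp3 was measured by 2 probe sets, and the family has near-identical members, so its signal may include those of relatives. The set with the larger difference read 6.23, 6.80 and 7.97 log2 (lowest, median, highest) in proestrus or estrus and 5.23, 5.95 and 6.54 log2 in diestrus. The difference was 1.05 ± 0.27 log2 (SE, adjusted p = 0.999 by limma), a signal 2.08 times as high, and 5 of the 6 rats outside diestrus lay above all diestrus rats. The highest values were those of rats 10 and 3, at 7.97 and 7.44 log2, the same rats in which skin keratins were high. Without these 2 rats the difference was 0.69 log2. The other probe set gave 0.32 ± 0.19 (SE) over all 12 rats and 0.05 without rats 3 and 10. In control rats the first probe set read 6.44, 7.91 and 7.49 log2 in the 3 rats outside diestrus and at most 6.66 log2 in the 9 diestrus rats, with Krt10 at 5.43 log2 or lower in those 3 rats. The control difference was 1.01 ± 0.24 (SE, adjusted p = 1.0 by limma).

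The bases upstream of Obp3 are shown because steroid receptors are known to act near the genes of this family in other rat tissues. The sequence covers 250 bases before the annotated start, chr5:79640676-79640925 on the minus strand of GRCr8, from RefSeq. Capitals mark the letters AGAACA or their reverse complement TGTTCT, the half-site to which glucocorticoid, progesterone and androgen receptors bind, searched on both strands without overlap between matches.
Obp3: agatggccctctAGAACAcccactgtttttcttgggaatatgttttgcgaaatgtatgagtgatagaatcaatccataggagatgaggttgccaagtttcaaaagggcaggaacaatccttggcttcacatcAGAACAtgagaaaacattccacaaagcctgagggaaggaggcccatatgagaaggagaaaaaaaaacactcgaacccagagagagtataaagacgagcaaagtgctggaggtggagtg
There were 2 matches. Among all 33469 promoters listed by RefSeq the letters stood in the same window of 17.5%. Of the 24 leading genes 18 had a promoter in that list, and 5 held the letters in any of their promoters (Gcgr, Epdr1, Obp3, Carhsp1 and Tank). The share counts promoters and the 5 of 18 counts genes, so they cannot be compared directly. The full oestrogen response element GGTCANNNTGACC was found in 0 of the 18 and in 0.0239% of all promoters. A match describes letters and not a site.

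The other 10 genes of the group that was higher differed by less. Gcgr, the glucagon receptor, ran from 7.49 over 7.84 to 7.94 log2 in proestrus or estrus and from 7.01 over 7.28 to 7.61 log2 in diestrus, and 5 of 6 rats lay above all diestrus rats. Its difference was 0.47 ± 0.12 log2 (SE), while control rats gave -0.06. Baalc, a membrane-associated adaptor, was higher by 0.34 ± 0.08 in treated rats, against a control value of -0.02. Hacd3, a dehydratase of very-long-chain fatty acid synthesis, lay between 8.76 and 8.98 log2 in proestrus or estrus and between 8.48 and 8.74 log2 in diestrus, so that the groups did not overlap, with a difference of 0.24 ± 0.06 log2 (SE) in treated and 0.14 in control rats. Gpsm3, a modulator of G-protein signalling, did not overlap either, at 0.23 ± 0.05 (SE), but its pools differed by 0.02 only. Epdr1, an ependymin-related secreted protein, was at 0.30 ± 0.08 and 0.48 in the pools. The ER-bound transcription factor Creb3, the phosphatase inhibitor Ppp1r11, the membrane skeleton protein Epb41l3, the Arf GTPase-activating protein Smap2 and 6330403K07Rikl lay between 0.14 and 0.42.

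**Figure D1:**
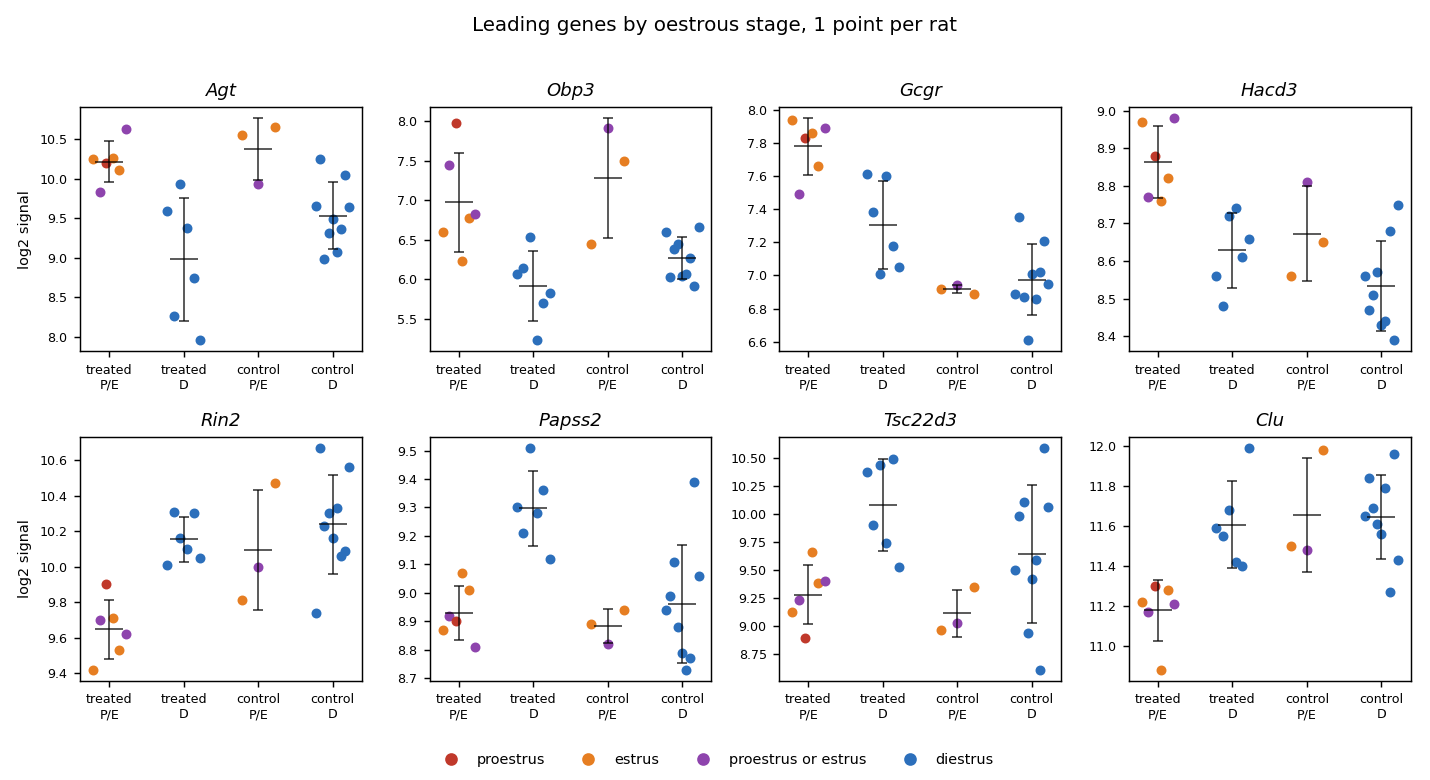
The y axis of each panel gives the log2 signal of 1 probe set in treated rats in proestrus or estrus (treated P/E) and diestrus (treated D) and in control rats of both stages, 1 point per rat coloured by its stage label, with the mean and SD in black. Agt and Obp3 sat higher outside diestrus in treated and control rats, while the 6 treated rats outside diestrus lay below all 6 treated diestrus rats for Rin2, Papss2 and Clu.

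In the group that was lower, Rin2 was measured at 9.42, 9.66 and 9.90 log2 (lowest, median, highest) in proestrus or estrus and at 10.0, 10.1 and 10.3 log2 in diestrus. The stages did not overlap, and the difference was -0.51 ± 0.08 log2 (SE, adjusted p = 0.393 by limma). A second probe set of Rin2 gave -0.33 ± 0.08 (SE). The pools of 2 gave -0.33 for the first set, without overlap, and control rats -0.14. Papss2, which makes the sulphate donor of sulphation reactions, lay between 8.81 and 9.07 log2 in proestrus or estrus and between 9.12 and 9.51 log2 in diestrus, a difference of -0.37 ± 0.07 (SE, adjusted p = 0.705 by limma). Its control value was -0.08.

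Tsc22d3 was between 8.89 and 9.66 log2 in proestrus or estrus and between 9.53 and 10.5 log2 in diestrus, and 5 of the 6 rats outside diestrus lay below all diestrus rats. The difference was -0.80 ± 0.18 log2 (SE), a signal 0.575 times as high, with -0.73 in the pools and -0.53 ± 0.33 (SE) in control rats. Pde4b gave -0.72 ± 0.18 (SE) and, by its other probe set, -0.40 ± 0.17 (SE). Its diestrus rats were spread from 7.90 to 9.13 log2, against 7.54 to 7.98 log2 outside diestrus. Clu, clusterin, a secreted chaperone that is abundant in the involuting gland, lay between 10.9 and 11.3 log2 in proestrus or estrus and between 11.4 and 12.0 log2 in diestrus without overlap. Its difference was -0.43 ± 0.10 (SE) in treated rats and 0.01 ± 0.14 (SE) in control rats, and its second, dimmer probe set gave -0.07 ± 0.05 (SE).

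Acss1, the mitochondrial acetyl-CoA synthetase, differed by -0.36 ± 0.07 (SE) in treated rats without overlap and by -0.27 in control rats. Cdkn1c, the cell cycle inhibitor p57, was not among the 12 lower genes. It had the largest difference among named probe sets whose stages did not overlap, -0.53 ± 0.15 (SE). It lay between 7.39 and 7.94 log2 in proestrus or estrus and between 7.98 and 8.90 log2 in diestrus. The remaining 6 of the 12 genes were the RNA-binding protein Carhsp1, the junction protein Cgnl1, the heparan sulphatase Sulf1, the TRAF-binding adaptor Tank, Sestd1 and the class II histocompatibility chain RT1-Bb, between -0.34 and -0.22. For RT1-Bb the other probe set gave 0.03 ± 0.05 (SE). Carhsp1 had a second probe set at -0.25, close to the first at -0.26.

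All 24 genes kept their sign in the pools of 2, which hold the same rats. Of them 15 had pools that did not overlap, where 16.1% of all probe sets did not. The 24 were chosen with the same labelled targets, so both pool counts were largely set by the choice and are no separate support. In control rats 16 of 24 had the same sign, 7 of the 12 higher and 9 of the 12 lower, beside 54.3% of all probe sets. Only Agt and Obp3 had an unadjusted p under 0.05 in control rats (0.00397 and 0.00107 by limma), where 308 probe sets did (1.94%). Without rats 3 and 10, all 24 had the same sign and an unadjusted p under 0.05, as 4.31% of all probe sets had. The 24 were chosen for a small p with the same rats, so this count was largely set by the choice and is no separate support. Over all probe sets the stage differences of treated and control rats had r = 0.133 across 15866 probe sets, which are not independent of each other.

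**Figure D2:**
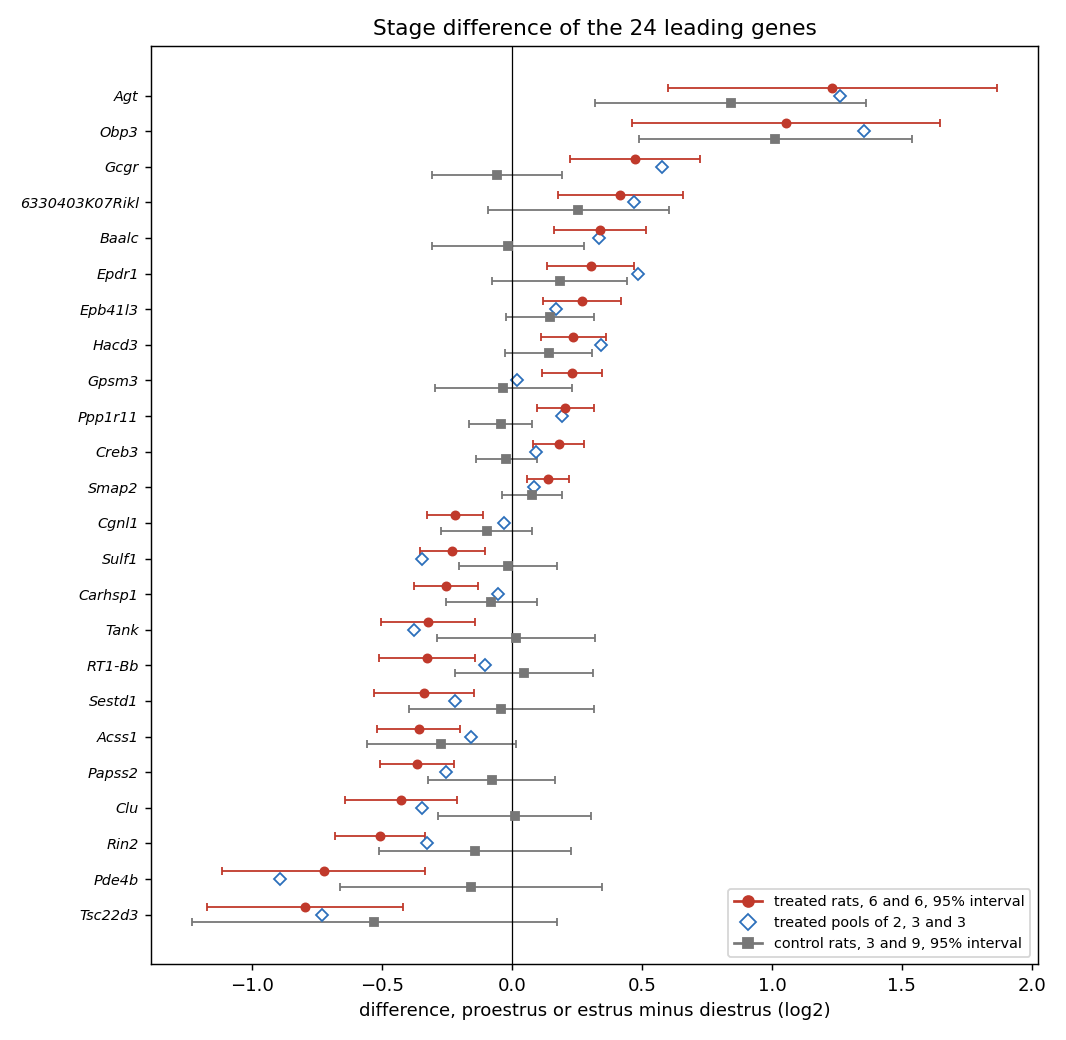
The x axis gives the difference in log2 signal, proestrus or estrus minus diestrus, for the 24 genes with the smallest p, with red points and 95% intervals for treated rats, open blue diamonds for treated pools of 2 and grey squares with 95% intervals for control rats. Agt and Obp3 lay to the right of 0 in all 3 sets, while the control intervals of Gcgr, Baalc, Clu and Rin2 included 0.

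The difference between the stage effects of treated and control rats was tested over all 24 rats. By limma 0 of 15866 probe sets passed (0%) for the interaction, 322 (2.03%) had an unadjusted p under 0.05, and the smallest adjusted p was 1.0. The smallest p belonged to Smtn, smoothelin, a protein of contractile smooth muscle. It read 8.27 to 8.49 log2 in treated rats in proestrus or estrus and 8.08 to 8.47 log2 in those in diestrus. In control rats it was 8.11 to 8.27 log2 in proestrus or estrus and 8.28 to 8.48 log2 in diestrus, so the sign was opposite, 0.17 in treated and -0.21 in control rats. For Gcgr the interaction was 0.53 ± 0.17 log2 (SE) and for Clu -0.44 ± 0.17 (SE), while Agt gave 0.39 ± 0.41 (SE) and Obp3 0.04 ± 0.40 (SE). The other 3 genes with the smallest p, Med22, Trim11 and Arhgef17, gave 0.33, 0.21 and 0.28. The stage difference of Med22 was 0.11 in treated rats but -0.17 in their pools of 2, without overlap. For Trim11 it was 0.07 and 0.04, for Arhgef17 0.14 and 0.18, and for Smtn 0.17 and 0.24 (treated rats, pools). Of the leading genes Ppp1r11 gave 0.25 ± 0.07 and Creb3 0.20 ± 0.07 (SE each). Leading genes such as Gcgr and Clu were chosen for their stage difference in treated rats, which is part of the interaction. Their interaction values were therefore partly set by the choice.

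The ovarian hormone and prolactin receptors did not separate the stages in the individual treated rats. Of 11 measured genes 0 had an unadjusted p under 0.05, where 3.88% of all genes did, and the list median was 0.01 log2, beside 0.01 over all probe sets. Esr1 lay between 5.72 and 5.88 log2 in proestrus or estrus and between 5.74 and 5.95 log2 in diestrus, near the low end of the arrays, and its difference was 0.01 ± 0.05 (SE). In the pools of 2 Esr1 gave -0.18 ± 0.07 (SE) without overlap, where 16.1% of all probe sets did not overlap. Esr2 gave 0.01 ± 0.05 (SE) in the individual rats at a like low signal. Pgr lay between 6.26 and 7.09 log2 in proestrus or estrus and between 6.40 and 6.86 log2 in diestrus, at -0.03 ± 0.14 (SE), with both its highest values in rats 10 and 11 outside diestrus. The 3 probe sets of Prlr, the prolactin receptor, gave 0.03 to 0.07. The largest negative value of the list was that of Nr3c1, the glucocorticoid receptor, at -0.17 ± 0.08 (SE).

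In the oestrogen response list 3 of 19 genes had an unadjusted p under 0.05, all higher in proestrus or estrus, where 2.48% of all genes were higher at that level, with a list median of 0.03 log2. They were Agt, Igf1 and Rara, among 13 positive and 6 negative genes. The most negative was C3, a complement component chosen after its values were seen, at -0.77 ± 0.42 (SE). The list was chosen with earlier results of these data known, and Agt was also a leading gene, so the count is no separate support. Igf1, the insulin-like growth factor that stromal cells make, ran from 10.3 over 10.7 to 10.98 log2 in proestrus or estrus and from 10.0 over 10.3 to 10.9 log2 in diestrus, a difference of 0.37 ± 0.14 (SE), and the groups overlapped. Rara, the retinoic acid receptor alpha, gave 0.16 ± 0.05 (SE) in treated rats and -0.02 in control rats. Areg read 10.7 log2 in proestrus rat 10 and 10.7, 9.74 and 9.33 log2 in estrus rats 11, 12 and 2. In diestrus it ran from 7.16 log2 in rat 7 to 9.84 log2 in rat 8, so the stages overlapped, at 0.79 ± 0.43 (SE) in treated and 1.01 ± 0.72 (SE) in control rats.

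In the progesterone and prolactin response list 0 of 15 genes were higher and 1 was lower at an unadjusted p under 0.05, beside 1.40% of all genes lower. That gene was Tnfsf11, which was between 5.08 and 5.22 log2 in all 6 rats in proestrus or estrus. In diestrus rats 5, 8 and 9 read 6.01, 5.81 and 6.39 log2, while rats 4, 6 and 7 read 5.13, 5.06 and 5.18 log2. The difference of -0.44 ± 0.20 (SE) therefore came with diestrus rats 4 and 7 inside the range of the other stage and rat 6 just below it. The same 3 rats had the highest Mki67 values among the diestrus rats. Fst, follistatin, gave -0.29 ± 0.17 (SE) and Calca 0.06 ± 0.05 (SE), but Calca gave -0.20 in the pools of 2, without overlap. In steroid metabolism 1 of 21 genes had an unadjusted p under 0.05, where 3.88% of all genes did. It was Cyp1b1, a cytochrome P450 that hydroxylates oestradiol. It lay between 7.12 and 7.25 log2 in proestrus or estrus and between 7.28 and 7.48 log2 in diestrus without overlap, at -0.14 ± 0.04 (SE). Hsd17b12 gave 0.27 ± 0.18 and Star -0.24 ± 0.14 (SE each).

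**Figure D3:**
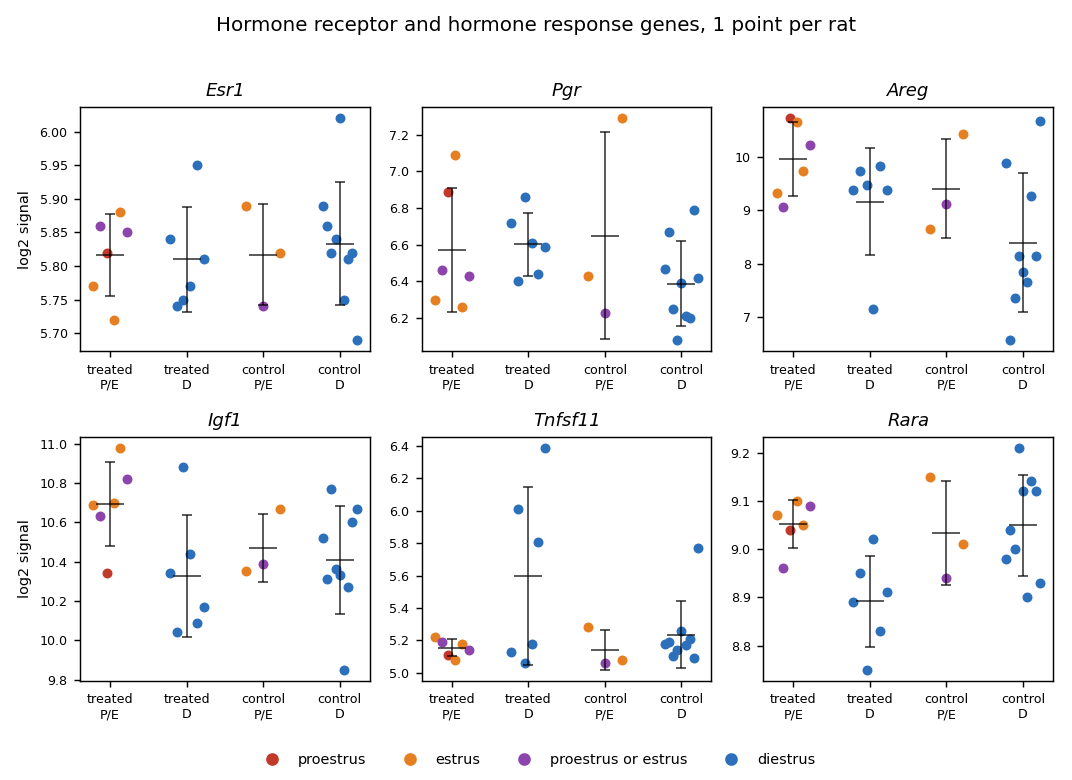
The y axis of each panel gives the log2 signal in treated and control rats in proestrus or estrus (P/E) and diestrus (D), 1 point per rat coloured by stage label, with the mean and SD in black. Esr1 and Pgr overlapped between stages in the treated and control rats shown. Areg was highest in rats 10 and 11 among treated rats, and Tnfsf11 was above 5.8 log2 in 3 of the 6 treated diestrus rats only.

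Most proliferation genes had negative differences, with a median that turned sign without 1 rat. In the cell cycle list 22 of 27 genes had a negative difference, with a median of -0.10 log2, where 59.8% of all genes were positive. At an unadjusted p under 0.05 there were 0 of the 27, beside 3.88% of all genes. Without rats 3 and 10 the median was -0.18 with 25 genes negative, and in control rats it was -0.10 with 20 negative. Leaving out 1 treated rat moved the median between -0.20 and 0.01, the sign turning without diestrus rat 9, the rat with the highest Mki67, and the value was -0.07 without diestrus rat 5. It was -0.18 to -0.20 without rat 3, 4, 6 or 7. Mki67, a marker of cycling cells, ran from 6.02 over 6.27 to 6.79 log2 in proestrus or estrus and from 5.88 over 6.60 to 7.95 log2 in diestrus. The diestrus rats were spread widely, with rats 9, 5 and 8 highest of all 12 and rat 6 lowest, and the difference was -0.41 ± 0.30 (SE). Ccnb2, Cdkn3 and Kif20a, which act in mitosis, gave -0.32, -0.30 and -0.26. The milk and secretory list had 7 genes positive and 7 negative of 14 and a median of -0.01. It had 0 genes at an unadjusted p under 0.05, beside the same 3.88%.

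Most genes of fat and energy metabolism had positive differences of a size that depended on single rats. In the lipogenesis list 19 of 25 genes were positive with a median of 0.15 log2. At an unadjusted p under 0.05 there were 0, where 3.88% of all genes were. Without rats 3 and 10, 24 of 25 were positive, the median was 0.26 and 3 genes were higher at an unadjusted p under 0.05, where 3.24% of all genes were in that fit. Leaving out 1 rat moved the median between 0.05, without diestrus rat 9, and 0.29, without rat 3. It was 0.08 without rat 11, 0.10 without rat 6, 0.24 without rat 4 and 0.26 without rat 7. Mlxipl, the carbohydrate-responsive factor ChREBP, gave 0.39 ± 0.19 (SE), Elovl5, a fatty acid elongase, 0.22 ± 0.12, and Fads2, a desaturase, 0.21 ± 0.11. The respiratory chain list had 23 of 24 genes positive at a median of 0.08, led by Ndufa5 of complex I at 0.18 ± 0.09 (SE). The median of that list ran from 0.03, without rat 9, to 0.13, without rat 3 or 7, and was 0.12 without rat 4 and 0.04 without rat 8 or 11. In control rats the medians of both lists were 0.03. The adipocyte list had 12 of 16 positive at a median of 0.04, and 14 of 16 at 0.18 without rats 3 and 10. Its median was -0.04 without rat 9 and -0.01 without rat 5, against up to 0.15 without rat 7, so its sign depended on single rats. Its largest values were those of Slc2a4, the insulin-responsive glucose transporter, at 0.44 ± 0.31 (SE) and Pck1, an enzyme of glyceroneogenesis, at -0.71 ± 0.52 (SE). With array weights the median was 0.04 for lipogenesis, 0.02 for the respiratory chain and -0.05 for the adipocyte list. Over all genes 59.8% were positive in the main fit. In a tissue of several cell types, fewer cells of a type and less RNA per cell cannot be told apart.

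Most macrophage and fibroblast genes had negative differences. In the macrophage list 10 of 12 genes were negative and 2 were lower at an unadjusted p under 0.05, where 1.40% of all genes were, with a median of -0.10 log2 in treated rats and 0.07 in control rats. C1qa, a chain of complement C1q, ran from 9.44 over 9.70 to 9.90 log2 in proestrus or estrus and from 9.72 over 9.85 to 10.2 log2 in diestrus, at -0.25 ± 0.09 (SE). Tyrobp, a signalling adaptor of myeloid cells, gave -0.17 ± 0.06 (SE). In the fibroblast list 13 of 18 were negative at a median of -0.13, which was -0.05 without diestrus rat 8 and -0.08 without diestrus rat 6, and 1 was lower at an unadjusted p under 0.05, Ogn, a small proteoglycan, at -0.51 ± 0.22 (SE). The collagen genes Col1a1 and Col1a2 gave -0.29 ± 0.15 and -0.32 ± 0.19 (SE each). In matrix remodelling 13 of 23 genes were negative at a median of -0.03, and 1 was lower at an unadjusted p under 0.05, Plau, the urokinase, at -0.18 ± 0.07 (SE). Loxl1 and Timp1 gave 0.24 and 0.31. The largest value of the list was that of Mmp3, stromelysin, chosen after its values were seen, at -0.70 ± 0.72 (SE).

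Among genes that respond to stimuli, 18 of 22 immediate early genes were negative at a median of -0.08, against 0.04 in control rats. That median ran from -0.16, without rat 10, to -0.04, without rat 7, and was -0.12 without rat 5. The differences of the 22 genes ran from -0.30 to 0.61, and 59.8% of all genes were positive. Junb, a subunit of AP-1, ran from 8.10 over 8.39 to 8.66 log2 in proestrus or estrus and from 8.52 over 8.71 to 8.84 log2 in diestrus, at -0.30 ± 0.09 (SE). In the circadian clock list 10 of 14 genes were negative at a median of -0.07, which was -0.01 without diestrus rat 4, -0.03 without rat 3 and -0.11 without diestrus rat 9. Per2, a repressor of the clock, gave -0.39 ± 0.14 (SE) with 6.98 to 7.86 log2 in proestrus or estrus and 7.42 to 8.11 log2 in diestrus. The labels give no time of day. In the IGF system 2 of 15 genes were higher at an unadjusted p under 0.05, where 2.48% of all genes were, Igf1 and its binding protein gene Igfbp4 at 0.16 ± 0.07 (SE). Igf1 was counted in the oestrogen response list too. In apoptosis and involution 1 of 20 was higher, Bad, a promoter of cell death, at 0.15 ± 0.07 (SE), and 1 was lower, Clu, at the same level. Of all genes 2.48% were higher and 1.40% lower.

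**Figure D4:**
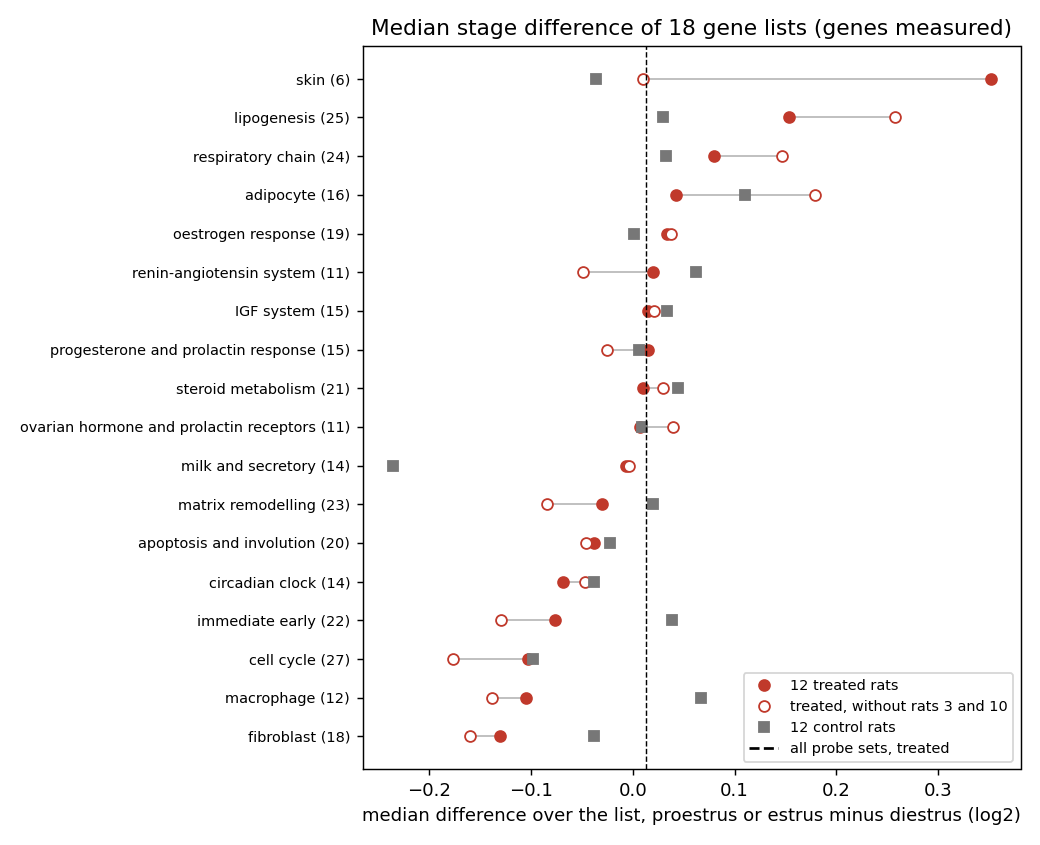
The x axis gives the median over each list of the difference in log2 signal, proestrus or estrus minus diestrus, in the 12 treated rats (filled red), without treated rats 3 and 10 (open red) and in the 12 control rats (grey squares), with the number of genes measured after each name. The skin median moved from 0.35 in all 12 rats to 0.01 without rats 3 and 10, while lipogenesis moved to 0.26 and cell cycle to -0.18.

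Rats 3 and 10 carried skin keratins. Krt10, a keratin of the upper epidermis, read 11.1 log2 in rat 10 and 9.10 log2 in rat 3, against 5.17 to 5.36 log2 in the other 4 rats outside diestrus and 5.17 to 5.34 log2 in diestrus. Krt1, its partner, read 11.2 and 8.85 log2 in rats 10 and 3 and at most 7.19 log2 in the other treated rats. The pools that held rats 10 and 3 read 10.3 and 8.61 log2 for Krt10, and the 4 other pools 5.37 log2 or lower. Among control rats in diestrus the highest Krt10 was 8.22 log2 and the highest Krt1 7.94 log2, against medians of 5.24 and 6.94 log2. Only 6 of 20 skin genes were measured. Their median difference was 0.35 over 12 rats and 0.01 without rats 3 and 10. Lgals7 and Cst6, other genes of squamous epithelium, differed between stages by 0.70 ± 0.38 and 0.00 ± 0.16 (SE each). Lgals7 read 10.2 and 10.5 log2 in rats 10 and 3 and 8.08 to 10.1 log2 in the other treated rats. Cst6 read 6.31 and 6.03 log2 in rats 10 and 3 and 5.34 to 6.09 log2 in the others. Without both rats 684 probe sets had an unadjusted p under 0.05 and 0 passed by limma, with a smallest adjusted p of 0.194, that of Rin2 at -0.58.

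The main component of the 12 arrays held 41.9% of the variance, beside the 8.15% that the stage took up, and the stages overlapped on it. It was led by Glycam1, which is made in lactating epithelium and in vessels of lymph nodes, and Csn2, beta-casein. Glycam1 lay above 11.6 log2 in rats 2, 3, 12 and 14 outside diestrus and rats 5, 8 and 9 in diestrus, and below 8 log2 in rats 10 and 11 and rats 4, 6 and 7. Csn2 ran from 6.76 to 9.53 log2 in proestrus or estrus and from 6.28 to 12.6 log2 in diestrus. The luminal epithelium markers were at a like level in all. Their list means were 8.66 to 8.86 log2 in proestrus or estrus and 8.67 to 8.93 log2 in diestrus, so the stages overlapped. A technical score taken from repeat arrays averaged -1.01 in proestrus or estrus and -0.22 in diestrus.

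**Figure D5:**
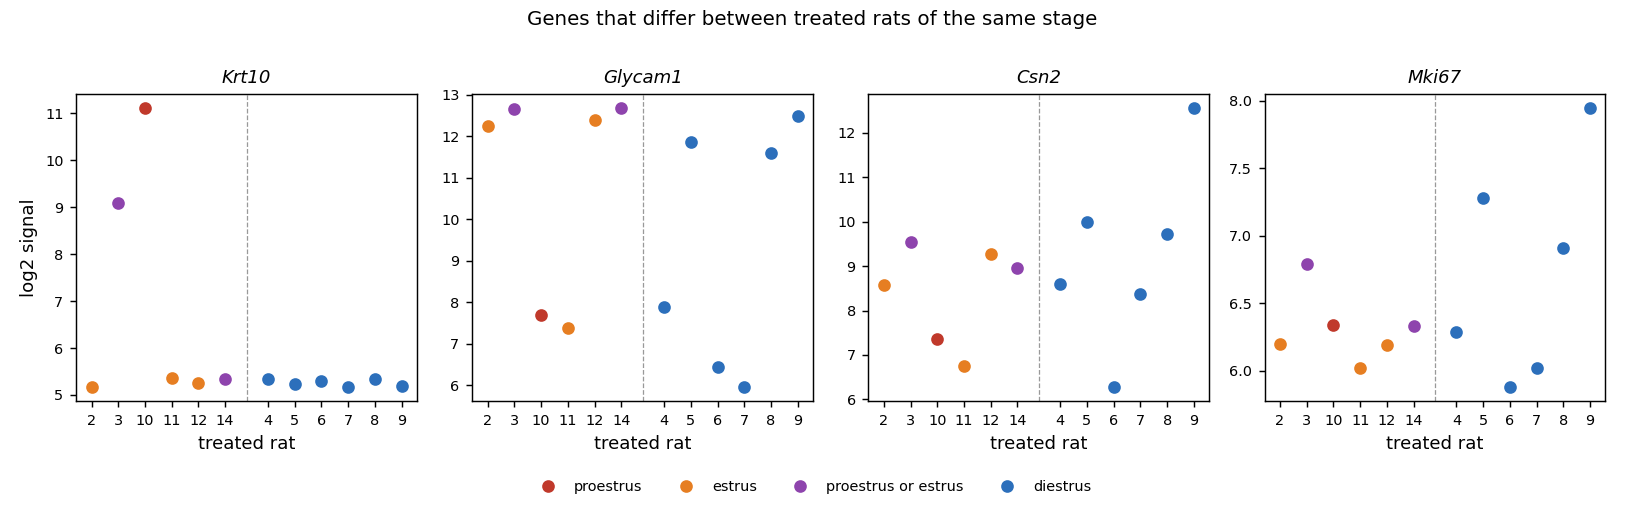
The y axis of each panel gives the log2 signal and the x axis the treated rats, the 6 in proestrus or estrus left of the dashed line and the 6 in diestrus right of it, 1 point per rat coloured by stage label. Krt10 stood out in rats 3 and 10, Glycam1 formed a high and a low set in both stages, and Csn2 and Mki67 were highest in diestrus rat 9.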

How the data were processed

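The deposited table holds a log2 value for each probe set on each array. The log2 scale was inferred: the values ran from 4.12 to 14.1, and a scanner of 16 bits would end at 11.1 on the natural log scale and at 16 on the log2 scale. Per the labels' protocols, 5 µg of RNA per rat was made into labelled cRNA, and pools were mixed after labelling. Which software, background correction and normalization the authors used is not given in the sources used here; nothing further was done to the values and no dim filter was applied. The medians of the 12 arrays lay between 7.40 and 7.47 log2, and precision is set by how many arrays there are.

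The 57 control probe sets were left out. Symbols came from the platform's annotation, updated through the Entrez ID to RefSeq genes of GRCr8 for 12748 probe sets: 12783 had 1 symbol, 312 several and 2771 none listed. Lists used 1 probe set per gene, that with the highest mean.

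Stages were compared with limma's lmFit and eBayes (R 4.3.3, limma 3.58.1; plots with Python 3.11.15, matplotlib 3.10.9), separately in treated rats, control rats and treated pools of 2, with Benjamini-Hochberg adjustment, and the interaction over 24 rats. The rats compared and the gene lists were chosen with earlier results of these data known. Named genes were the 12 smallest p in each direction, the 4 smallest p among the members of each of 18 described lists, the 4 smallest p of the interaction, the 4 largest differences without overlap, the 4 skin genes highest in rats 3 and 10, and Agt, Obp3, Esr1, Esr2, Pgr and Prlr. Second probe sets of the leading genes and 1 unnamed probe set were added after their values were seen. The technical score was the position on the main component of differences between repeat arrays, which held 57.3% of their variance. The fit was tested on simulated data. Alternatives covered normalization, a dim filter, the prior, weights, the test, the stage labels and leaving out rats.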

Additional observations from a re-analysis of the deposited data

Results flagged for a closer look

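Among 94 groups of 6 rats, 6 held a rat that stood apart from the others by Dixon's test, where chance gives about 1 in 20. In proestrus or estrus, rat 3 had the highest Gpsm3 at 8.47 log2, with 8.26 next. Rat 2 had the lowest Acss1 at 7.30 log2, with 7.63 next, and rat 11 the lowest Clu at 10.88 log2, with 11.17 next. The mean of the lipogenesis list was lowest in rat 3 at 10.04 log2, with 10.63 next. In diestrus, rat 7 had the highest Ppp1r11 at 9.18 log2, with 9.09 next, and the lowest mean of the oestrogen response list at 8.622 log2, with 8.784 next.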

How the results depend on the processing

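Under 15 other settings and without each of the 12 rats in turn, 0 probe sets passed for the stage in treated rats, and the 24 leading genes kept their direction in all of them. Their smallest adjusted p was 0.0929. These genes were chosen for a small p in the same rats, so a kept direction adds no separate support. The count at an unadjusted p under 0.05 (552) was 308 in the upper 50% of probe sets by mean, where fewer were tested, 829 with array weights and 851 with the 3 estrus rats alone against diestrus; without 1 rat it ran from 382 to 765. In the upper 50% the median of the oestrogen response list was 0.11 and that of the progesterone and prolactin list -0.16, over fewer genes. In control rats the count of 308 ran from 237 to 620 without 1 rat outside diestrus, the highest without rat 8. In the pools of 2 the count of 1605 ran from 788 to 2305 without 1 pool, the lowest without the diestrus pool of rats 5 and 6, with 1030 without the proestrus or estrus pool of rats 2 and 3. For the interaction, the rat number as a replicate block gave 0 calls and 329 at an unadjusted p under 0.05 (322 without it); the number is shared by treated and control rats as a label only. Medians of 8 of the 18 described lists changed sign without 1 rat, among them cell cycle (-0.20 to 0.01) and adipocyte (-0.04 to 0.15), and those of 6 in another setting. Signs turned for single genes near 0 too. With array weights Esr1 was -0.0039, Cst6 0.038, Pgrmc2 -0.0033 and Ghr -0.0070; without rats 3 and 10 Esr1 was -0.0050 and Esr2 -0.0042; with estrus rats alone Esr1 was -0.020; without rats 3 and 14 Esr1 was -0.013 and Pgr 0.032; with 3 arrays for rat 3 Esr1 was -0.0061 and Esr2 -0.0089. Without 1 rat the ranges were -0.0073 to 0.035 for Esr1, -0.012 to 0.025 for Esr2, -0.14 to 0.031 for Pgr, -0.026 to 0.080 for the brightest Prlr set, -0.13 to 0.075 for Cst6, -0.022 to 0.21 for Pgrmc2, -0.063 to 0.27 for Ghr and -0.038 to 0.0057 for Tchh. The cause was not tested.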

Other observations

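A probe set that the annotation assigns to 2 genes, and that is therefore not named, ran from 8.93 over 9.92 to 10.35 log2 in proestrus or estrus and from 7.69 over 8.56 to 9.15 log2 in diestrus, so the stages overlapped, with a difference of 1.28 ± 0.29 log2 (SE, adjusted p = 0.999 by limma). The pools gave 1.42 without overlap, and control rats 0.20 ± 0.34 (SE).

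Lists beyond those described had these medians in treated rats: lipocalins 0.00, interferon response 0.02, luminal epithelium -0.01, basal epithelium 0.07, endothelium 0.00, lymphocyte and lymph node 0, mast cell 0.04, eosinophil and neutrophil -0.02, skeletal muscle 0.01, nerve 0.00, erythrocyte -0.19 and brown adipocyte 0.02. These lists held 4 to 20 measured genes each. At an unadjusted p under 0.05 they held 1 higher gene, Obp3, and 1 lower gene, Itgb4, where 2.48% of all genes were higher and 1.40% lower. The erythrocyte list had 4 measured genes, and its mean was 9.23 and 8.80 log2 in diestrus rats 4 and 9, against 8.22 to 8.44 log2 in the other diestrus rats and 8.27 to 8.43 log2 outside diestrus.

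Xist, the RNA that coats the inactive X chromosome, was chosen after its values were seen, since it led the component that set rat 14 apart (score -22.9, against -2.98 to 7.08 in the other 11 treated rats). It read 6.66 log2 in treated rat 14 and 9.01 to 9.87 log2 in the other treated rats. The pool of rats 12 and 14 read 8.59 log2 and the other treated pools of 2 read 9.32 to 9.93 log2. Among control rats, all of them labelled female too, rats 14, 6 and 15 read 6.30, 7.07 and 7.98 log2 and the others 9.66 to 10.6 log2. Without treated rat 14, 563 probe sets had an unadjusted p under 0.05 for the stage, and 0 passed by limma.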
